A study of Rattus norvegicus with 4 samples.

Results

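The 10 genes described here encode the core of transforming growth factor beta (TGF-beta) signalling: the ligands Tgfb1, Tgfb2 and Tgfb3, the receptors Tgfbr1 and Tgfbr2, and the Smads Smad2, Smad3, Smad4, Smad6 and Smad7. They were chosen by name, through array probes whose accession belongs to one of these rat genes, and all 10 of 10 were measured, among 16506 named genes. The cells were NR8383, an established line of rat alveolar macrophages obtained by lavage of a healthy lung, whose cultures are partly attached and partly floating. The single group was an untreated serum control: cells past 20 passages, grown with 15% fetal bovine serum, seeded for 48 h in 25 cm2 flasks and held for 4 h in DMEM with 10% fetal bovine serum. The labels add ALI to the condition without spelling it out. RNA from 4 biological replicates was read on 4 one-colour arrays, 1 per replicate, so there was no treated group and no contrast between conditions. The data answer which members were expressed and how closely the replicates matched.

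TGF-beta is secreted bound to its own propeptide, and this latent complex must be opened by integrins, proteases or thrombospondin before the ligand can act. The active dimer joins the type II receptor Tgfbr2 to the type I receptor Tgfbr1, which then phosphorylates Smad2 and Smad3. These enter the nucleus with the shared partner Smad4, and their targets include the inhibitory Smad7, which closes a feedback loop at the receptor. In the lung, alveolar macrophages of the mouse need TGF-beta, including their own, to mature and to persist.

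The 2 receptor genes act in the same complex, and their annotated start regions are shown because replicate 1 stood lower for Tgfbr1 and the probes of Tgfbr2 disagreed on it. Each is the 250 bases before the RefSeq start in GRCr8, on the gene's strand, with Tgfbr1 at chr5:66449148-66449397 on the plus strand and Tgfbr2 at chr8:124761470-124761719 on the minus strand. Capitals mark the GC box GGGCGG and the CCAAT box, searched on both strands.
Tgfbr1: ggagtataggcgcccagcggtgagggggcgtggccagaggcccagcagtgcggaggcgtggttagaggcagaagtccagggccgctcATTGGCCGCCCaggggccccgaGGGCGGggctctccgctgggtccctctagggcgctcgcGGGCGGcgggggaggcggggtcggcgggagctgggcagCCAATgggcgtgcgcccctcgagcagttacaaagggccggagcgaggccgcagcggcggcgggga
Tgfbr2: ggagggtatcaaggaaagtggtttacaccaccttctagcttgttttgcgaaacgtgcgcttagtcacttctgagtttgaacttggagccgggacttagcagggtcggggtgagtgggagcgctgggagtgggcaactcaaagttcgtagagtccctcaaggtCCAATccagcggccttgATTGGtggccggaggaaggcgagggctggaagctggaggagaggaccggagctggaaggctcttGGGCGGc
The Tgfbr1 window held 3 GC boxes and 2 CCAAT boxes, and the Tgfbr2 window 1 GC box and 2 CCAAT boxes. Of all 33469 RefSeq windows of this length, 30.5% held a GC box and 34.0% a CCAAT box. GC content was 75.6% for Tgfbr1 and 58.0% for Tgfbr2, against a median of 51.2% over all windows. Neither held the TATA box TATAAA, which 12.9% of windows held. Such matches describe the letters only, and no link between them and the array values was tested.

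The array software marks a spot as well above background when its signal exceeds the local background by a margin, and a gene counted as detected when the majority of the spots of at least 1 of its probes were marked on each of the 4 arrays. By that call 6 of the 10 members were detected (60%), against 53.1% of all named genes, a share close to that of all genes. The detected members were Tgfb1, Tgfbr1, Tgfbr2, Smad2, Smad4 and Smad7. Smad6 was well above background on 3 arrays, and Tgfb2, Tgfb3 and Smad3 on none, as were 34.4% of named genes. In bulk RNA, fewer expressing cells and less RNA per cell cannot be told apart. The line carried its macrophage label: all 10 of 10 macrophage markers were detected, among them the lysosomal protein Cd68, the growth factor receptor Csf1r and the transcription factor Spi1. Of markers of other cells, 0 of 6 fibroblast and smooth muscle genes, 1 of 6 epithelial genes, 2 of 4 endothelial genes, 0 of 4 platelet genes and 1 of 4 T cell genes were detected. The detected ones were Foxj1 and Cd4, each through 1 of 2 probes, and Pecam1 and Cdh5. In limma's looser one-sided test against negative control spots, also used below, 2, 2, 3, 2 and 3 genes of these lists passed, in that order. Of all named genes 69.2% passed that test.

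**Figure D1:**
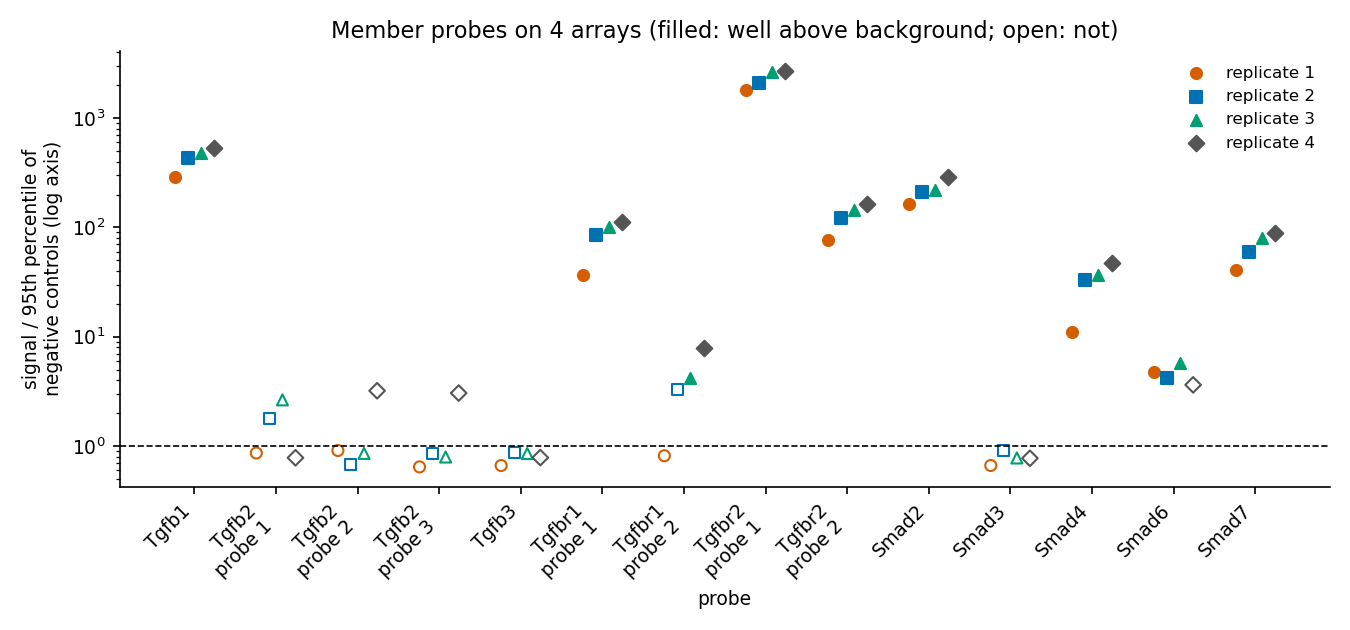
Processed signal of each member probe on each array, divided by that array's 95th percentile of negative control spots (log axis, dashed line at 1). Filled symbols were well above background. The Tgfb1, Tgfbr2, Smad2, Smad4 and Smad7 probes and probe 1 of Tgfbr1 are filled on all 4 arrays, the Tgfb2, Tgfb3 and Smad3 probes on none.

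Among the ligands, Tgfb1, the form that immune cells chiefly make, was the detected one. Its processed signal was 938, 1462, 1536 and 1963 on replicates 1 to 4, between 288 and 534 times the 95th percentile of the negative controls. The signals are not scaled between arrays, and replicate 4 had the highest 75th percentile of signal, so levels are given below on a log2 scale relative to the 75th percentile of the same array, as mean ± SD over n = 4 arrays. On that scale Tgfb1 lay at 3.49, 3.71, 3.60 and 3.55, with a mean of 3.59 ± 0.09. Of all detected genes, 8.33% had a smaller SD. That closeness was not kept under the normexp alternative, which used median signals, another background correction and an added offset. Under that alternative the SD of Tgfb1 was 0.32, and replicate 1 lay -0.62 from the mean of the others, against -0.13 here. These changes were made together, and which of them widened the spread was not tested. Levels of different genes come from different probes and are not set against each other.

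Tgfb2, a ligand best known from development, had 3 probes and was well above background through none of them. Its first probe read 2.81, 6.02, 8.45 and 2.87 on replicates 1 to 4, where the 95th percentile of negative controls was 3.26, 3.38, 3.20 and 3.68. The other two Tgfb2 probes exceeded that percentile only on replicate 4, at 11.8 and 11.2. The probes therefore disagreed on which array carried the stronger signal. In limma's one-sided moderated test against the negative control percentile, none of the 3 passed, with adjusted p = 0.198, 0.444 and 0.542. Tgfb3, the third isoform, read 2.16, 2.96, 2.73 and 2.88, below that percentile on every array (limma, adjusted p = 0.991). Neither ligand passed the looser mark for a positive and significant signal on all 4 arrays.

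Both receptor genes were detected. Tgfbr2, the type II receptor that binds the ligand first, had 2 probes, and each was well above background on all 4 arrays. The probe printed 10 times per array averaged 5901, 7118, 8491 and 10041 in signal over its accepted spots, and its level was 6.03 ± 0.10. The other probe read 253, 413, 460.5 and 599, and its level was 1.80 ± 0.13. The 2 probes are designed to different RefSeq accessions of Tgfbr2, and a brighter probe does not show a more abundant transcript. They also ranked replicate 1 differently, since it was the highest array for the first probe, at 6.15, and the lowest for the second, at 1.60 against 1.88, 1.86 and 1.84 on the others. Averaged over both probes the gene's level was 3.91 ± 0.05, an SD that is small because the opposite deviations of the 2 probes cancel in the average. Under normexp the SD of the average was 0.12.

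The repeated Tgfbr2 spots show how much of the spread lies within an array. On replicate 1 the 10 accepted spots ran between 4963 and 6929, and on replicate 4 the 9 accepted spots between 9375 and 11255. The SD between spots of 1 array averaged 0.091 on the log2 scale, and the SD between the 4 array means was 0.10. Each mean rests on 7 to 10 spots, with a standard error from spot scatter of 0.016 to 0.046, so the array means lay farther apart than spot scatter alone would place them.

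**Figure D2:**
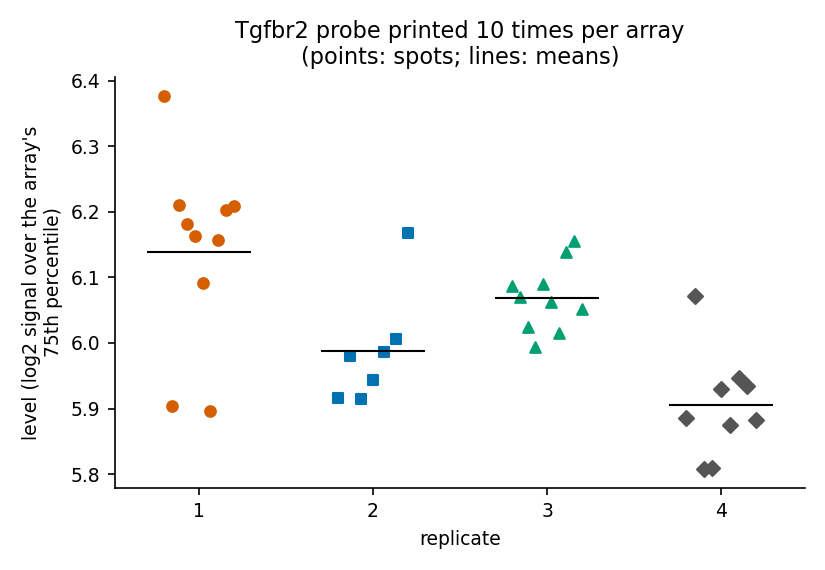
Level of each accepted spot of the Tgfbr2 probe printed 10 times per array (points) and the mean of each array (lines), as log2 signal over the array's 75th percentile. Each array mean rests on 7 to 10 spots, and replicate 1 has the widest spread of spots.

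Tgfbr1, the type I receptor kinase that phosphorylates the Smads, had 2 probes to the same accession, and they disagreed. The first was well above background on all 4 arrays, with signals of 121, 288, 320.0 and 414 on replicates 1 to 4. The second read 2.65, 11.2, 13.5 and 29.2 and was well above background on replicates 3 and 4 only, although it passed limma's test against negative controls (adjusted p = 0.0192). By the first probe the level of Tgfbr1 was 0.53 on replicate 1 and 1.36, 1.34 and 1.31 on the others, a mean of 1.14 ± 0.40. Replicate 1 lay below all other arrays, by -0.80 from their mean, while replicates 2 to 4 had an SD of 0.028. With the dimmer probe averaged in, the difference was -1.38. The second probe was also lowest on replicate 1, at -4.97 against -3.32, -3.23 and -2.52, though its signal there was below the negative control percentile.

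Smad2, a Smad activated by the TGF-beta receptor, was detected with signals of 539.9, 706, 703 and 1069. Its level was 2.70, 2.66, 2.47 and 2.67 on replicates 1 to 4, a mean of 2.63 ± 0.10, and 11.2% of detected genes had a smaller SD. Smad3, which is activated by the same receptor and binds DNA directly, read 2.16, 3.07, 2.49 and 2.84. Every Smad3 value lay below the negative control percentile of its array (limma, adjusted p = 0.991). Smad2 and Smad3 thus stood on opposite sides of the detection call on every array. Each was read by 1 probe, so a Smad3 transcript that the probe misses would go unseen.

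Smad4, the partner that all receptor-activated Smads share, was detected with signals of 35.7, 111, 118 and 174. Its level was -1.22 on replicate 1, against -0.02, -0.10 and 0.05 on replicates 2 to 4, a mean of -0.32 ± 0.60. Replicate 1 lay -1.20 from the mean of the others, whose own SD was 0.075. Under the normexp alternative that difference was -0.42. The offset of 50 in that alternative draws dim values together on the log2 scale, and its part in the change was not tested. On the level scale used above, 1.28% of detected genes lay lower on replicate 1 than Smad4 relative to the other arrays, and 94.3% had a smaller SD. Of the inhibitory Smads, Smad7, which targets the TGF-beta receptor for degradation, was detected with signals of 134, 203, 258 and 330.2 and a level of 0.69, 0.85, 1.03 and 0.98, a mean of 0.89 ± 0.15. Replicate 1 was its lowest array, at -0.27 from the mean of the others. Smad6, which mainly restrains the bone morphogenetic protein (BMP) branch, read 15.6, 14.3, 18.4 and 13.3 and missed the mark on replicate 4 alone. Those signals were between 3.62 and 5.75 times the negative control percentile, and Smad6 met the looser mark for a positive and significant signal on all 4 arrays and passed limma's test (adjusted p = 2.62e-05). Counting Smad6, 7 of 10 members were detected on at least 3 arrays, by the looser mark or by limma, where 57.3%, 66.9% and 69.2% of all named genes were.

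**Figure D3:**
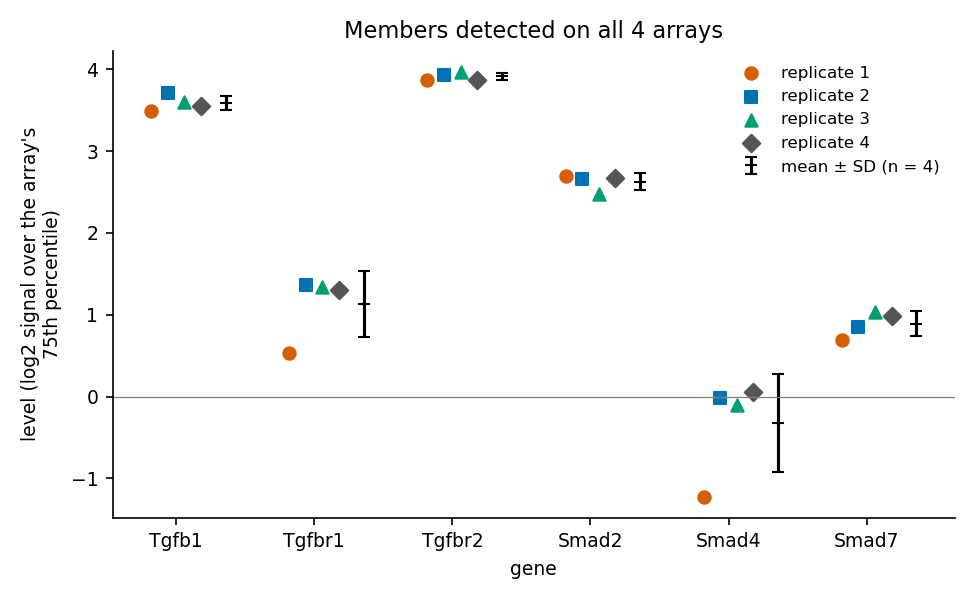
Level of the 6 members detected on all 4 arrays, as log2 signal over the array's 75th percentile (symbols: replicates, bars: mean ± SD, n = 4). Tgfbr1 and Smad4 lie lower on replicate 1, at 0.53 and -1.22, than on the other arrays, and levels of different genes are not comparable.

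Replicate 1 carried most of the spread of Tgfbr1 and Smad4, the 2 members with the largest SDs. It was the lowest array for 5 of the 6 detected members (Tgfb1, Tgfbr1, Tgfbr2, Smad4 and Smad7), where 32.8% of all detected genes were lowest on it. For Tgfbr2 replicates 1 and 4 both read 3.87, and its probes disagreed. Tgfb1 read 3.49 on replicate 1 and 3.55 on replicate 4. Smad2 was highest on replicate 1, by less than its SD, as were 42.4% of detected genes. Replicate 1 lay farthest from the mean for 3 of the 6 members, Tgfbr1, Smad4 and Smad7, a share close to the 54.7% of all detected genes. That count was 5 members under normexp, quantile normalization or a percentile over detected probes. The share of all detected genes was not counted under those settings, so the higher count is not read as a result about the members. Tgfbr1 and Smad4 were also the 2 members with 1 array apart by Dixon's 95% limit, which 8.52% of detected genes passed. Smad4 was the member at least 1 log2 unit lower on replicate 1, as were 2.54% of detected genes. Tgfbr1 and Smad4 were read through 1 detected probe each. Over all 8772 detected genes the median difference between replicate 1 and the others was 0.07, and 44.1% of genes lay lower. Replicate 1 also had the lowest 75th percentile of signal, 83.4 against 112, 126 and 167 on replicates 2 to 4, and the smallest share of spots well above background, 50.9% against 53.9%, 56.5% and 58.9%. The part of that lower signal in the values of Tgfbr1 and Smad4 was not tested. No member was called more variable than genes of its level in limma's variance fit, in which 0 of 8772 genes (0%) passed at an adjusted p under 0.05 and 417 (4.75%) at an unadjusted p under 0.05. The smallest value among members was that of Smad4 (limma, unadjusted p = 0.0762, adjusted p = 0.975). With 4 arrays this count does not show that the replicates were equal.

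The genes around the core were read from 9 lists with 110 genes, of which 99 were measured and 52 detected (52.5%), a share close to the 53.1% of all named genes. The lists differed in how complete they were, as described next by counts only.

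**Figure D4:**
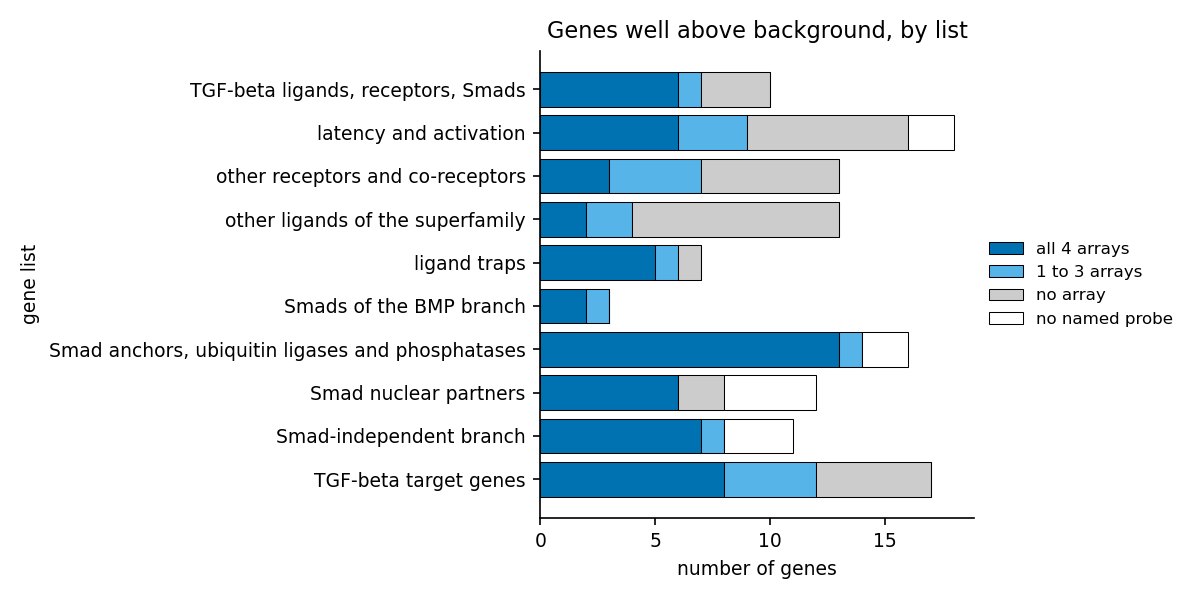
Number of genes in each list that were well above background on all 4 arrays, on 1 to 3 arrays or on no array, or that had no named probe. The list of Smad anchors, ubiquitin ligases and phosphatases had 13 of 14 measured genes on all 4 arrays, and other ligands of the superfamily 2 of 13.

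Genes that store and open latent TGF-beta were detected in part, 6 of 16 (37.5%), against 53.1% of all named genes. None of the 4 latent TGF-beta binding proteins, which tether the complex to matrix, was detected: Ltbp2 reached the mark on 1 array, and Ltbp1, Ltbp3 and Ltbp4 on none. The membrane anchors for latent TGF-beta on leukocytes were both detected, with Nrros, the form of macrophages and microglia, at 4.72 ± 0.10 and Lrrc32, the form of regulatory T cells and platelets, at -1.67 ± 0.40. The protease Furin, which cuts the propeptide, lay at 2.57 ± 0.18. The integrin chains Itgb1 at 4.40 ± 0.19 and Itgb3 at -0.72 ± 0.14 were detected, each as an average over 2 probes. These lay at 5.36 ± 0.18 and 3.44 ± 0.30 for Itgb1, and at -1.75 ± 0.34 and 0.31 ± 0.12 for Itgb3. Itgb6, the epithelial activator, Itgb5 and Thbs1 were well above background on no array. Of these, Itgb5 passed limma's looser test against negative controls. Itgav and Itgb8, also on the list, had no named probe and were not assessed. Mmp9, a gelatinase that can release the ligand, lay at 0.73 ± 0.47.

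Few other receptors and ligands of the superfamily were detected, although limma's looser test against negative controls passed 7 of 13 receptors and 5 of 13 ligands. That test passed 69.2% of all named genes, and 53.1% were detected on all 4 arrays. Of 13 receptors and co-receptors 3 were detected: the co-receptor Eng at -0.78 ± 0.33, the type I receptor Acvrl1 at 1.06 ± 0.14 and the BMP type II receptor Bmpr2 at -0.75 ± 0.47. The Bmpr2 level is an average over 3 probes, at -1.01, -1.55 and 0.30. The co-receptor Tgfbr3 and the BMP type I receptors Bmpr1a and Bmpr1b were well above background on no array. Of 13 other ligands 2 were detected, the activin chain Inhba at -1.44 ± 0.17, through 1 of 2 probes, and the stress-induced Gdf15 at 2.91 ± 0.60. Bmp2, Bmp4 and Bmp6 were well above background on no array. Of 7 ligand traps 5 were detected, the follistatins Fst at -2.10 ± 0.20 and Fstl3 at -1.19 ± 0.37, Chrd at -2.01 ± 0.25, and the proteoglycans Dcn at -0.13 ± 0.37 and Bgn at -1.70 ± 0.37. Fst was detected through 1 of 2 probes, and the Bgn level is an average over 2 probes, at -1.55 and -1.85. Of the BMP-branch Smads, Smad1 lay at 0.71 ± 0.29 and Smad5 at -1.23 ± 0.08, and Smad9 was well above background on 1 array. Smad5 was detected through 1 of 2 probes.

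Most measured genes of the intracellular lists were detected, as were 53.1% of all named genes. Of 14 measured Smad anchors, ubiquitin ligases and phosphatases, 13 were detected and Zfyve9, which presents Smad2 to the receptor, was well above background on 3 arrays. The endocytic adaptor Dab2 lay at 6.09 ± 0.18, and the ubiquitin ligases Smurf1 and Smurf2, which partner Smad7 at the receptor, at 2.40 ± 0.67 and 3.37 ± 0.18. The receptor-binding immunophilin Fkbp1a lay at 5.49 ± 0.36. Of 12 listed nuclear partners 8 were measured and 6 detected, including the corepressor Tgif1 at 3.23 ± 0.20. Ski, Skil, Ep300 and Zeb1 had no named probe. The coactivator Crebbp, detected through 1 of 2 probes, lay at 1.97 ± 0.10. The transcription factors Runx1 and Zeb2 lay at 3.02 ± 0.23 and 3.08 ± 0.66. The Runx1 level is an average over 2 probes, at 5.18 ± 0.15 and 0.86 ± 0.44. The Smad-independent branch had 7 of 8, with the kinase Map3k7 at -1.23 ± 0.38, its partner Tab1 at 2.17 ± 0.17, the ubiquitin ligase Traf6 at -1.09 ± 0.71 and the kinase Mapk14 at 4.99 ± 0.58.

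Genes known as TGF-beta targets in various cell types were detected in 8 of 17 cases (47.1%), against 53.1% of all named genes. The nuclear regulators Id1 and Id2 lay at 3.21 ± 0.58 and 3.17 ± 0.10, the early response factor Klf10 at 2.19 ± 0.54, the cell cycle inhibitors Cdkn1a and Cdkn2b at 2.79 ± 0.08 and -0.99 ± 0.31, and Junb at -0.39 ± 0.40. The Cdkn1a level is an average over 2 probes, at 5.45 and 0.12, and Cdkn2b was detected through 1 of 3 probes. Tgfbi and Ccn2, targets linked to matrix, and the mesenchymal regulators Snai1 and Snai2 did not reach the mark on any array. By limma's test against negative controls 13 of the 17 passed, as did 69.2% of all named genes. These genes answer to many signals, and with no added or blocked ligand their levels are not a reading of pathway activity.

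Several pathway genes stood apart on replicate 1, some in each direction. Beside Smad4 and Tgfbr1, the lower ones included Traf6 at -2.14 on replicate 1 against -0.79, -0.93 and -0.53, Smurf1 at 1.41 against 2.88, 2.76 and 2.54, and Zeb2 at 2.09 against 3.33, 3.37 and 3.54. Higher on replicate 1 were Id1, at 4.03 against 2.67, 3.03 and 3.13, Klf10, at 3.00 against 1.89, 1.95 and 1.92, and Mapk14, at 5.84 against 4.64, 4.85 and 4.62. In all 27 of the 52 detected pathway genes lay lower on replicate 1 and 25 higher, with a median difference of -0.09. On the same array the macrophage markers Mrc1 and Cd14 lay 1.36 and -0.84 from the mean of the other arrays. Among all 10 macrophage markers 3 lay lower on it and 7 higher, with a median difference of 0.13. Pecam1, a marker of endothelium that macrophages also express, lay 1.34 from that mean, and Cdh5, the other detected endothelial marker, -0.01. The part of these markers in the values of the members was not tested.

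**Figure D5:**
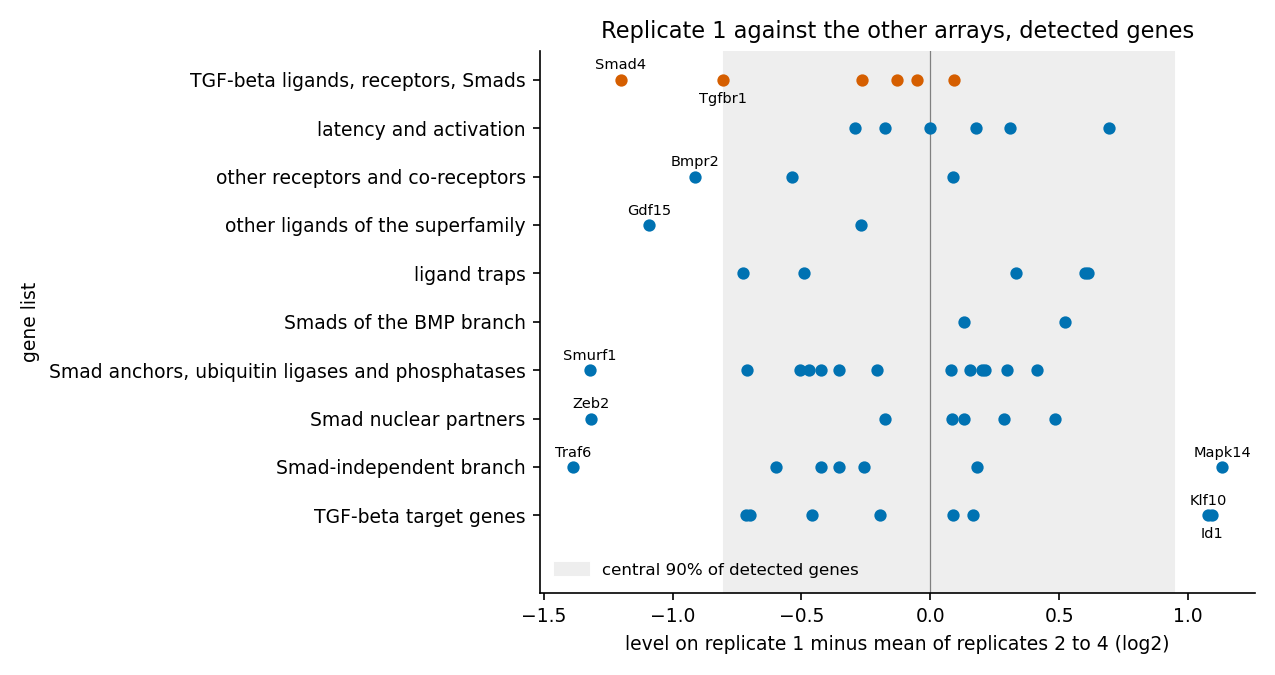
Level on replicate 1 minus the mean of replicates 2 to 4 (log2) for each gene detected on all 4 arrays, by list, with the central 90% of all detected genes shaded. Smad4 lies at -1.20, below the shading, and Tgfbr1 at -0.80, at its low edge, and genes of the other lists lie on both sides of 0.

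The start regions of the members had no single feature in common. RefSeq windows were found for 9 of the 10 members, with 2 for Smad2. GC content was between 58.0% and 82.8% except for Tgfb3 at 48.8% and Smad4 at 30.8%. The Smad4 window also held the TATA box letters and had the lowest ratio of observed to expected CpG, 0.171 against a median of 0.383 over all windows. A GC box was found in the windows of Smad2, Smad3, Smad7, Tgfbr1 and Tgfbr2, and in none of the ligand windows. Of these, Smad3 was not detected, and of those without a GC box Tgfb1 and Smad4 were detected. The palindrome GTCTAGAC, bound by Smads, was in no member window and in 0.173% of all windows, and the shorter Smad box CAGAC was in no member window and in 42.9% of all windows.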

How the data were processed

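Total RNA (100 ng per sample, RNA integrity number above 7.5) was labelled with Cy3 and hybridised to 1-colour Agilent arrays, per the labels' protocols, and quantified with Agilent Feature Extraction 11.0.1.1, per the submitters' processing notes. Per the file headers, the deposited files hold linear intensity values for each spot, as a background-corrected processed signal and as median foreground and background signals, with no scaling between arrays. The headers name an rn4 annotation, and no genome coordinates were taken from the arrays.

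Of 62976 spots per array, 4259 controls were left out, as were outlier spots (440 to 1206 per array), and none was saturated. Spots of a probe were averaged, giving 45598 probes, of which 318 had no accepted spot on at least 1 array and were dropped. Unversioned accessions were matched to RefSeq symbols of GRCr8, which named 17614 of 40539 accessions and 21109 probes. The log2 processed signal was centred on each array's 75th percentile, and detected probes of a gene were averaged. The precision is limited by the number of arrays. All arrays share a slide and scan, so batches could not be tested.

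limma 3.58.1 in R 4.3.3 tested probes against the 95th percentile of 308 negative control spots, and tested each gene's variance against a prior that follows the mean level, with Benjamini-Hochberg adjustment over all probes or genes. Both were run on simulated data with added effects, for the variance test far wider than the spread of any member. That run does not show how well the test finds spreads like those of the members. For the variance test the prior degrees of freedom of the bulk of genes were used for every gene. This was chosen after per-gene values recovered none of the simulated variable genes. As alternatives, each replicate was left out in turn, and detection used 2 looser calls or at least 3 arrays. Levels were also taken with normexp (offset 50) on median signals, with quantile normalization, with a percentile over detected probes, with dim probes kept, and with the first probe only. A further alternative dropped a dim patch of spots (rows 166 to 216, columns 73 to 88).

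The members and gene lists were chosen with earlier results of these data known. Named genes were the 10 members and, of each list, at most the first 6 detected and the first 4 well above background on no array, every exception where a list had 3 or fewer, and genes with 1 array apart by Dixon's limit. Ltbp2, Itgb6, Thbs1, Bmpr1b and Snai2, and Mrc1 and Cd14 among the markers, were chosen after their values were seen. The values of 1 listed gene are not reported here. The 4 arrays are biological replicates per the series' design text, and p-values measure the spread between them.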

Additional observations from a re-analysis of the deposited data

Results flagged for a closer look

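Of 72 listed genes detected on all 4 arrays, 11 had 1 array apart from the other 3 by Dixon's ratio, the gap to the nearest array over the whole range. Chance alone gives about 5% of such groups, and 8.52% of all 8772 detected genes passed the 95% limit. Of the 6 detected members 2 passed, Tgfbr1 with a ratio of 0.932 and Smad4 with 0.882, both low on replicate 1. Lower on replicate 1 were also Chrd (0.898), Smurf2 (0.874), Fkbp1a (0.839), Zeb2 (0.859), Ppp2r2a (0.839) and Id2 (0.836). Klf10 was higher on replicate 1 (0.946). Strap lay lower on replicate 2 (0.874) and Ccn1 lower on replicate 4 (0.835). At least 1 of the 10 spots of the Ccn1 probe lay in the dim patch of the array, and its part in that lower value was not tested. No spot of a member probe lay in that patch.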

How the results depend on the processing

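The count of detected members was 6 or 7 under all 8 alternatives run, and the gene that moved was Smad6, which was added without replicate 4, on at least 3 arrays and under both looser calls. Leaving out 1 replicate gave 6 to 7 detected members and 52 to 58 detected pathway genes. The looser calls gave 68 (positive and significant) and 72 (limma) of the 99 measured pathway genes, against 52. Of all named genes, 66.9% and 69.2% passed those calls. Under them other receptors reached 7 against 3, other ligands 4 and 5 against 2, and target genes 13 against 8 by limma. Genes called more variable numbered 109 without replicate 1, 0 without any other replicate and 2 with no filter on dim probes. No member was among them. Without replicate 1 the SDs of Tgfbr1 and Smad4 were 0.028 and 0.075, so that setting could not call their lower values on it. Replicate 1 was farthest for 5 members under normexp, quantile normalization and the percentile over detected probes. It was farthest for 4 when replicate 2, 3 or 4 was left out. The share of all detected genes was not counted under these settings. Under normexp, whose offset draws dim values together, the difference of Smad4 on replicate 1 was -0.42. Under the other alternatives it was between -1.29 and -1.16. The difference of Tgfbr1 on replicate 1 ran between -1.38, with no filter on dim probes, and -0.60, under normexp. Under normexp the SD of Smad2 was 0.15 against 0.10, and the SDs of Tgfb1 and Tgfbr2 also grew, to 0.32 and 0.12. The difference on replicate 1 turned to -0.077 for Smad2 under normexp and to 0.16 for Tgfbr2 by its first probe, and the cause was not tested beyond the disagreement of the 2 probes given above. Naming by a gene name column was not run, since the files used here hold accessions only. No paired analysis was possible because there was 1 group.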
